A study of Danio rerio with 32 samples.

Results

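Keratin genes were taken as all rows of the count table whose zebrafish symbol begins with krt followed by a digit or the letter t, or with *cyt1*. The rule found 22 of 32057 genes, and *krtcap2*, which does not encode a keratin, was left out. Fragments of RNA were counted per gene in pools of 80 tailbuds dissected at 16 somites, with 4 pools in each of 8 groups. The tailbud is the growing posterior end of the embryo, and it is covered by embryonic skin. The question was how keratin transcripts differed between cohesin mutants and wild type and how they responded to Wnt stimulation.

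The 4 untreated groups were WIK wild type, homozygotes for the nz171 allele of *rad21* (*rad21-/-*), heterozygotes for the same allele (*rad21+/-*) and homozygotes for the nz207 allele of *stag2b* (*stag2b-/-*). Each genotype was also given 2.5 µM BIO, an inhibitor of Gsk3 that stimulates Wnt signaling, from 4 hpf until dissection. *rad21* encodes a core subunit of the cohesin ring, and *stag2b* encodes one of the alternative subunits that bind the ring. Embryos of the *rad21* line were told apart by genotyping their heads, and every library averages over its 80 embryos. Wild type was a line of its own and is not described as siblings of the mutants. In comparisons with wild type, an effect of the allele thus cannot be told apart from one of line or clutch. As a check of the labels, *rad21* transcripts (listed as *rad21a*) were 784 ± 70.8 CPM (counts scaled to 1e6 per library) in untreated wild type, 378 ± 31.2 CPM in *rad21+/-* and 53.9 ± 8.52 CPM in *rad21-/-* (SD, n = 4). Transcripts of *stag2b* were 188 ± 22.2 CPM in wild type and 165 ± 7.78 CPM in *stag2b-/-* (log2 fold change −0.20, standard error 0.09, adjusted p = 0.22, edgeR quasi-likelihood test), so the level of this transcript does not check that label.

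Library totals ran from 32464614 to 115057368 counted fragments. Chi-square values between replicate pools were 8.77 to 194 per gene, where counting noise alone gives 1, and no library was a copy of another. Values are CPM scaled by the trimmed mean of M values. A gene was called at a 5% false discovery rate (FDR), with p-values adjusted by Benjamini-Hochberg over all genes tested.

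Keratins are the intermediate filament proteins of epithelia. A type I keratin pairs with a type II keratin, and the pairs assemble into filaments that are anchored at desmosomes and hemidesmosomes. The skin of the early zebrafish embryo consists of an outer periderm, which derives from the enveloping layer of the blastula, over a basal epidermis marked by the transcription factor gene *tp63*.

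Keratin transcripts spanned many orders of magnitude (plot of levels per kilobase). *krt4*, a type II keratin of the superficial epidermis, was the highest per length, with a mean over all libraries of 9200 CPM per kilobase of exon. The type I gene *cyt1* followed with 2570 CPM per kilobase, the type II gene *krt5* with 2390, *cyt1l* with 1920 and *krt8* with 1580. Then came *krt92* at 1040 CPM per kilobase, the type I gene *krt18a.1* at 965, *krt17* at 809 and *krt99* at 542. A middle group held *krt91* (164 CPM per kilobase), *krt97* (136) and *krt222* (12). All others lay below 10 CPM per kilobase, from *krt1-19d* at 8.91 down to *krt93* at 0.172, *krt18a.2* at 0.0364 and *krt95* at 0.00685. In the order per length, the ranges of neighbouring genes over the 32 libraries overlapped among the abundant genes and among the low ones. These places are thus averages over groups that differ.

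**Figure D1:**
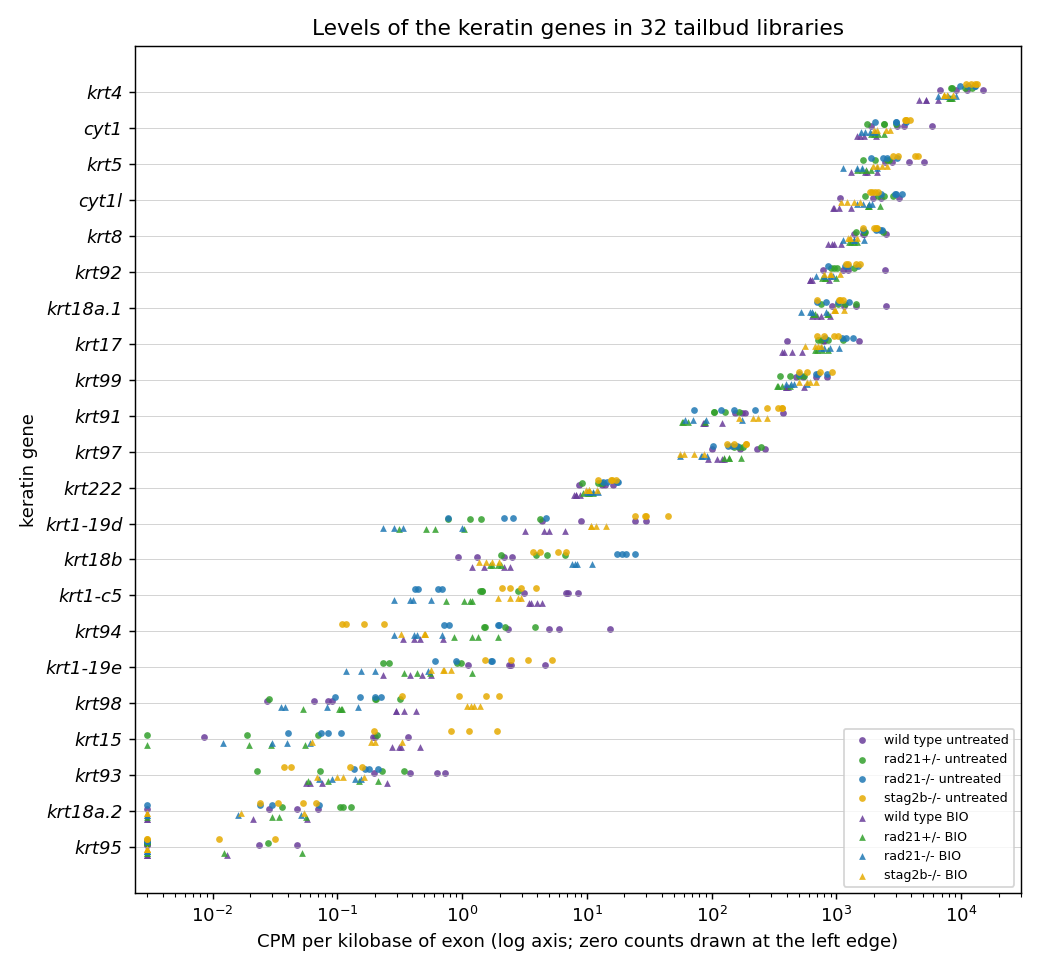
CPM per kilobase of exon (log axis) of the 22 keratin genes in 32 libraries; each point is 1 pool, circles are untreated and triangles BIO-treated, and colours give the genotype. *krt4* is the highest gene, and the genes from *krt1-19d* downwards spread more between genotypes than the abundant ones.

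The genes sit in few places of the GRCz11 genome. Chromosome 19 holds 7 of them within 56118 bases (chr19:5324653-5380770), among them *krt1-19d*, *krt1-19e*, *krt92*, *cyt1l*, *cyt1*, *krt17* and *krt91*. Chromosome 11 holds 6, of which *krt93*, *krt94*, *krt98*, *krt15* and *krt99* lie in this order within 120526 bases (chr11:11454545-11575070). *krt5*, *krt8*, *krt18a.1* and *krt18a.2* are on chromosome 23, *krt4* and *krt18b* on chromosome 6, *krt97* and *krt222* on chromosome 22, and *krt1-c5* on chromosome 5. Fragments that mapped to several places were not counted, so values of close paralogues such as *krt18a.1* and *krt18a.2* are uncertain.

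Of the 22 genes, 2 were too low to be tested. *krt95* had 22 counts in all, in 8 of 32 libraries, and *krt18a.2* had 99 counts in 23 libraries. The other 20 passed the filter on low counts, which asks for at least 0.191 CPM in as many libraries as a group holds. *krt98* passed through the mutant groups in the untreated fit, since none of the 4 wild-type pools reached 0.191 CPM, so a higher level in a mutant was in part a condition of its being tested. *krt15* reached this level in none of the 4 untreated *rad21-/-* pools and in 3 of the 4 wild-type pools.

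Pools of one group differed from each other in all keratins together. Wild-type untreated replicate 3 had the lowest value of its group for 20 of 20 tested keratins, and replicate 1 the highest for 18 of 20. Over all genes tested, these shares were 25.7% and 27.6%. Keratins together took 3.75% to 7.57% of the counts in the 4 untreated wild-type pools. The same held in other groups. In untreated *rad21-/-*, replicate 3 was lowest for 18 of 20 and replicate 1 highest for 14, in untreated *rad21+/-* replicate 4 was highest for 16, and in *rad21-/-* with BIO replicate 3 was highest for 17 and replicate 4 lowest for 16. In untreated *stag2b-/-*, no pool was highest for more than 8 or lowest for more than 9 of 20. The summed periderm list described below was likewise highest in replicate 1 and lowest in replicate 3 of untreated wild type (8800 and 4020 CPM) and of untreated *rad21-/-* (7520 and 4700 CPM), whereas the basal epidermis list of untreated *rad21-/-* was highest in replicate 2. A pool with less skin cannot be told apart from one with less keratin RNA per cell in bulk samples.

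Without BIO, the abundant keratins of the mutants overlapped with those of wild type. Of the 9 highest genes per length, from *krt4* to *krt99*, *krt5* in *rad21+/-* was the sole one called in a comparison with untreated wild type. *krt4* was 37020, 27370, 16630 and 22420 CPM in the 4 wild-type pools (mean 25900 ± 8640, SD, n = 4). It was 32000, 32070, 24330 and 28010 CPM in *rad21-/-*, 21090, 20510, 26470 and 30080 CPM in *rad21+/-*, and 26850, 33130, 31860 and 29780 CPM in *stag2b-/-*. All 3 mutant ranges lay within the wild-type range. The log2 fold changes were 0.18 (standard error 0.20, adjusted p = 0.53), −0.07 (0.20, 0.83) and 0.22 (0.20, 0.58).

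*krt8*, a type II keratin of simple epithelia, was 7325, 4810, 4058 and 4756 CPM in untreated wild type. It was 6698, 6478, 4778 and 6099 CPM in *rad21-/-*, 4143, 4858, 4906 and 6835 CPM in *rad21+/-*, and 4753, 6111, 6008 and 5866 CPM in *stag2b-/-*. Each of the mutant ranges fell inside that of wild type here too, and no comparison was called (log2 fold changes 0.20, −0.01 and 0.11, adjusted p = 0.41, 0.97 and 0.81).

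*krt5* was 12560, 9477, 6086 and 6859 CPM in untreated wild type and 4014, 5050, 6320 and 6540 CPM in *rad21+/-*. The ranges overlapped, with 2 *rad21+/-* pools below all wild-type pools. *krt5* was called lower in *rad21+/-* (log2 fold change −0.67, standard error 0.23, adjusted p = 0.042). It was 7518, 6245, 4690 and 5859 CPM in *rad21-/-* (−0.52, adjusted p = 0.086) and 7721, 11260, 10470 and 6990 CPM in *stag2b-/-* (0.05, adjusted p = 0.94). The call in *rad21+/-* was lost when replicate 1 or 2 of either group was left out, at adjusted p-values up to 0.16. It was also lost with no filter on low counts (0.052) and with only the libraries compared in the fit (0.081).

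The low keratins differed between genotypes by much larger factors. In untreated *rad21-/-*, 1 of 20 tested keratins was higher and 3 were lower than in wild type, where 15.8% of all genes tested were called higher and 16.7% lower. In *rad21+/-*, 1 was higher and 5 were lower, beside 10.8% and 9.75% of all genes. In *stag2b-/-*, 2 were higher and 3 lower, beside 2.41% and 3.88%. The higher ones were *krt18b* and *krt98*, and *krt98* passed the filter through the mutant groups. Over the 20 keratins, the median log2 fold change was −0.40 for *rad21-/-*, −0.46 for *rad21+/-* and 0.08 for *stag2b-/-*, and over all genes it was −0.02, −0.01 and −0.01. These comparisons share the 4 untreated wild-type pools.

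**Figure D2:**
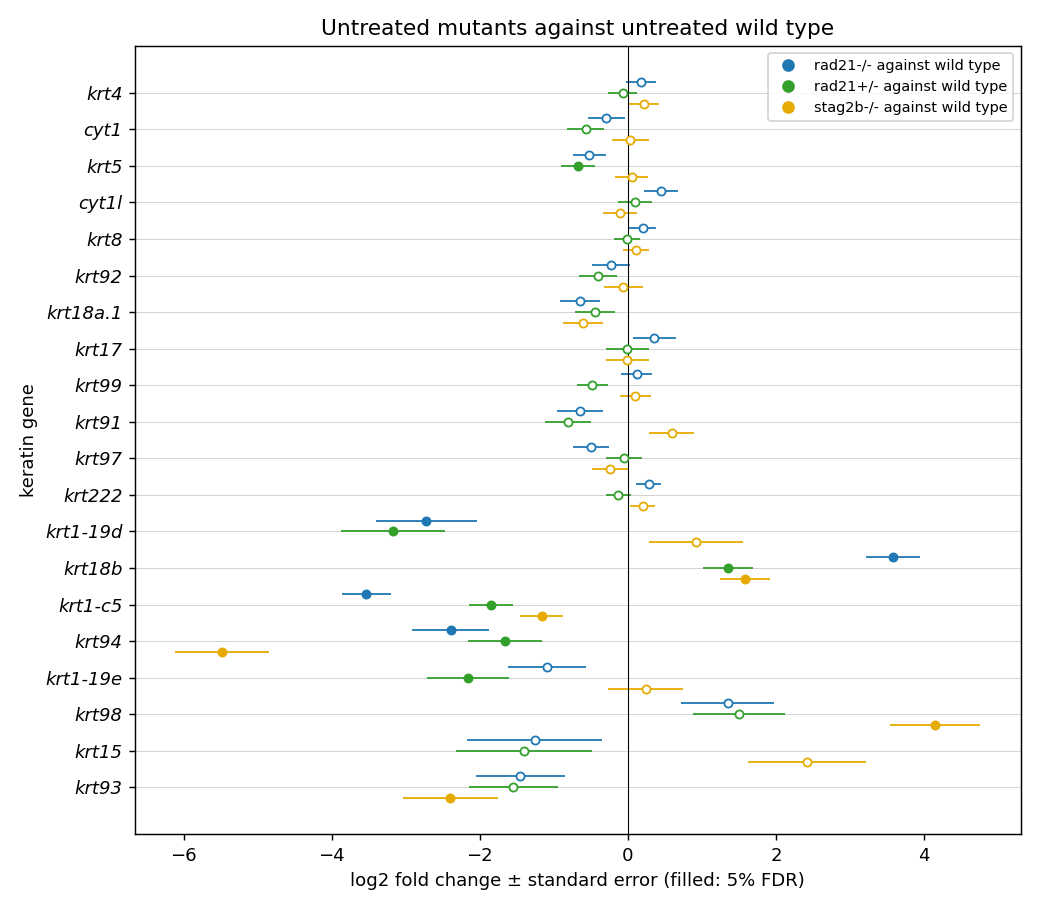
Log2 fold change ± standard error of the 20 tested keratins in untreated *rad21-/-*, *rad21+/-* and *stag2b-/-* against untreated wild type (4 pools each; filled points, called at 5% FDR). Genes are ordered from the highest (top) to the lowest level per kilobase; *krt94*, *krt98*, *krt18b*, *krt1-c5* and *krt1-19d* lie farthest from 0 among the called genes.

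*krt18b*, a paralogue of the type I gene *krt18* that pairs with *krt8* in simple epithelia, was higher in all 3 mutants. On chromosome 6 (chr6:39360377-39365467, plus strand) it lies close to *krt4*. It was 4.76, 4.12, 1.74 and 2.47 CPM in wild type and 36.1, 46.2, 32.9 and 38.9 CPM in *rad21-/-*. No pools overlapped, and the level was 12-fold higher in *rad21-/-* (log2 fold change 3.58, standard error 0.36, adjusted p = 2.2e-06). *rad21+/-* pools stood between them at 7.40, 3.88, 12.6 and 9.08 CPM, with 1 pool inside the wild-type range (1.35, standard error 0.34, adjusted p = 0.0096). *stag2b-/-* pools were at 6.99, 8.04, 12.8 and 11.2 CPM, all above wild type (1.58, standard error 0.34, adjusted p = 0.010). *rad21-/-* also exceeded *rad21+/-* without overlap (2.23, standard error 0.34, adjusted p = 5.4e-04).

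*krt1-c5*, a type I keratin gene at chr5:64869176-64883099 on the minus strand, was lower in all 3 mutants. Wild-type pools held 10.4, 12.8, 4.77 and 10.8 CPM, and *rad21-/-* pools 0.976, 0.679, 0.643 and 1.05 CPM. The groups did not overlap, and the level in *rad21-/-* was 11.6-fold lower (log2 fold change −3.53, standard error 0.33, adjusted p = 3.6e-07). In *rad21+/-* it was 4.25, 2.21, 2.1 and 2.19 CPM, again below every wild-type pool (−1.85, standard error 0.30, adjusted p = 2.4e-04) and above every *rad21-/-* pool (*rad21-/-* against *rad21+/-*, −1.69, standard error 0.32, adjusted p = 0.0027). In *stag2b-/-* it was 3.70, 3.19, 4.53 and 6.00 CPM, which overlapped the lowest wild-type pool (−1.16, standard error 0.29, adjusted p = 0.022). This last call was lost without wild-type replicate 2 or 4 or *stag2b-/-* replicate 1, 2 or 3 (adjusted p up to 0.079) and with only the libraries compared in the fit (0.064).

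*krt18b* and *krt1-c5* were the sole keratins called between untreated *rad21-/-* and *rad21+/-*. This was 1 of 20 in each direction, beside 1.47% of all genes higher and 3.84% lower in *rad21-/-*.

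*krt1-19d*, a type I gene at the end of the chromosome 19 cluster (chr19:5324653-5332784), was lower in both *rad21* genotypes. It was 40.6, 33.5, 6.04 and 12.4 CPM in wild type, 6.44, 2.99, 1.06 and 3.52 CPM in *rad21-/-* and 1.58, 1.07, 1.93 and 5.77 CPM in *rad21+/-*. *rad21-/-* overlapped wild type in 1 pool and *rad21+/-* in none. The log2 fold changes were −2.72 (standard error 0.68, adjusted p = 0.0086) and −3.17 (0.70, 0.0060). Between *rad21-/-* and *rad21+/-* it was not called (0.45, standard error 0.68, adjusted p = 0.85). In *stag2b-/-* it was 40.9, 61.6, 33.3 and 40.2 CPM, in the upper part of the wild-type range or above it (0.92, adjusted p = 0.46).

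Its neighbour *krt1-19e* (chr19:5339364-5345932), a gene of basal keratinocytes, was 7.33, 3.88, 1.77 and 3.77 CPM in wild type and 0.368, 0.410, 1.54 and 1.45 CPM in *rad21+/-*. These groups did not overlap (−2.16, standard error 0.55, adjusted p = 0.011). It was 2.71, 1.41, 0.954 and 2.75 CPM in *rad21-/-* (−1.09, adjusted p = 0.13) and 3.89, 8.29, 5.34 and 2.42 CPM in *stag2b-/-* (0.24, adjusted p = 0.85), both within reach of the wild-type pools.

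*krt94*, at chr11:11468566-11471857 on the minus strand, was the most reduced keratin in *stag2b-/-*. Wild-type pools held 29.1, 11.4, 4.43 and 9.38 CPM, and *stag2b-/-* pools 0.312, 0.206, 0.447 and 0.222 CPM. The lowest wild-type pool was far above the highest *stag2b-/-* pool. The difference was 44.7-fold (log2 fold change −5.48, standard error 0.63, adjusted p = 9.1e-05), and it lay between −5.77 and −4.79 over 14 alternatives. In *rad21-/-* it was 3.71, 3.71, 1.35 and 1.48 CPM, below all wild-type pools (−2.39, standard error 0.52, adjusted p = 0.0025). In *rad21+/-* it was 2.85, 2.87, 4.19 and 7.25 CPM, with 1 pool inside the wild-type range (−1.66, standard error 0.50, adjusted p = 0.028). The *rad21+/-* call was lost without wild-type replicate 1 or *rad21+/-* replicate 1, 2 or 3 (adjusted p up to 0.13), with no filter on low counts (0.052), and with only the libraries compared in the fit (0.080).

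*krt98*, 32156 bases from *krt94* on the other strand (chr11:11504014-11513985), went the opposite way in *stag2b-/-*. It was 0.174, 0.127, 0.0532 and 0.162 CPM in wild type, which is 33 counts over the 4 pools, and 0.642, 1.83, 3.02 and 3.80 CPM in *stag2b-/-*, which is 470 counts. There was no overlap, and the level was 17.8-fold higher (log2 fold change 4.15, standard error 0.61, adjusted p = 3.9e-04). None of the wild-type pools reached 0.191 CPM. *krt98* was thus tested through the mutant groups, and this p-value is no separate support for a higher level there. In *rad21-/-* it was 0.434, 0.385, 0.187 and 0.296 CPM, also above every wild-type pool but not called (1.35, adjusted p = 0.11). In *rad21+/-* it was 0.0553, 0.395, 0.391 and 0.618 CPM (1.5, adjusted p = 0.096), with 1 pool as low as wild type.

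*krt93*, the next gene beside *krt94* (10357 bases away), was 1.18, 1.01, 0.319 and 0.626 CPM in wild type and 0.257, 0.206, 0.0687 and 0.0606 CPM in *stag2b-/-*. The groups did not overlap, at 188 and 29 counts in all (log2 fold change −2.40, standard error 0.64, adjusted p = 0.029). *krt93* reached 0.191 CPM in 4 wild-type and 2 *stag2b-/-* pools. Of the groups compared, wild type, where it is higher, thus met the filter, as did *rad21-/-* with 4 pools. The call was lost without wild-type replicate 1, 2 or 4 or *stag2b-/-* replicate 2, 3 or 4 (adjusted p up to 0.092). It was 0.347, 0.220, 0.290 and 0.273 CPM in *rad21-/-* (−1.45, adjusted p = 0.070) and 0.0368, 0.117, 0.369 and 0.554 CPM in *rad21+/-* (−1.55, adjusted p = 0.074), where in each case the pools overlapped. Of the other 2 tested genes of this stretch, *krt15* had a log2 fold change of 2.42 in *stag2b-/-* (standard error 0.80, adjusted p = 0.085) and *krt99* was not called in any mutant. So among 5 neighbours within 120526 bases, 2 were lower, 1 was higher and 2 were not called in *stag2b-/-*. Over all genes tested, 3.88% were called lower and 2.41% higher, and no test set the neighbours against these shares. The higher neighbour, *krt98*, passed the filter through the mutant groups. Of the lower neighbours, *krt93* met the filter in wild type and not in *stag2b-/-*.

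The counts of called keratins changed with single pools. Without wild-type replicate 3, the pool with the lowest keratins, 8 keratins were called in *rad21-/-* in place of 4 and 8 in *rad21+/-* in place of 6. Without wild-type replicate 1 or *rad21+/-* replicate 2, 4 were called in *rad21+/-*. In *stag2b-/-*, 3 were called in place of 5 without *stag2b-/-* replicate 2 or 3 or wild-type replicate 2 or 4.

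Few genes of the periderm, basal epidermis and desmosome lists were called in the untreated mutants. Of 18 periderm and enveloping layer genes, 1 was higher and 0 lower in *rad21-/-*, and 0 were higher and 1 lower in each of *rad21+/-* and *stag2b-/-* (*icn2* in both, −0.96 and −1.11). The median log2 fold changes of this list were −0.07, −0.12 and 0.21. Their summed level was 4020 to 8800 CPM in wild type, 4700 to 7520 CPM in *rad21-/-*, 4580 to 6950 CPM in *rad21+/-* and 6260 to 7060 CPM in *stag2b-/-*, so the groups overlapped. Of 15 basal epidermis genes, 1 was higher and 2 were lower in *rad21-/-*, 2 were higher in *rad21+/-* and 1 was higher in *stag2b-/-*. *tp63* was higher in all 3 (log2 fold changes 0.34, 0.32 and 0.49, adjusted p = 0.0066, 0.017 and 0.0027). Of 13 desmosome genes, 1 was higher and 2 lower in *rad21-/-*, 1 was lower in *rad21+/-* and none was called in *stag2b-/-*. Over all genes tested, 15.8% were called higher and 16.7% lower in *rad21-/-*, 10.8% and 9.75% in *rad21+/-*, and 2.41% and 3.88% in *stag2b-/-*. No test set the counts of these lists against the shares.

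Ionocytes are the ion-transporting cells of the embryonic skin. Of 6 tested ionocyte genes, 5 were lower in *rad21-/-*, 1 in *rad21+/-* and 1 in *stag2b-/-*, beside 16.7%, 9.75% and 3.88% of all genes. *ca2*, which encodes a carbonic anhydrase, was lower in all 3 (log2 fold changes −4.70, −3.17 and −2.66, adjusted p = 1.6e-05, 3.7e-04 and 0.0043). *foxi3a*, a transcription factor gene of ionocyte precursors, was lower in *rad21-/-* (−2.49, adjusted p = 7e-05). The part of these cells in the keratin differences was not tested.

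Of 16 intermediate filament genes outside the keratins, 4 were higher and 5 lower in *rad21-/-* (beside 15.8% and 16.7% of all genes), 3 higher and 4 lower in *rad21+/-* (beside 10.8% and 9.75%), and 0 higher and 2 lower in *stag2b-/-* (beside 2.41% and 3.88%). No test set these counts against the shares. *nefla*, a neurofilament gene, was lower in *rad21-/-* and *rad21+/-* (−3.26 and −2.32, adjusted p = 4.4e-06 and 1.2e-04). In *stag2b-/-*, the vimentin-related gene *vimr2* was at −1.24 (adjusted p = 0.0056) and the internexin gene *inaa* at −1.08 (adjusted p = 0.0096).

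With BIO, nearly all keratins fell in wild type. Of 20 tested keratins 17 were lower and 1 was higher with BIO, beside 9.76% and 7.58% of all genes tested. The median log2 fold change over the 20 was −1.0, and over all genes 0.00. The summed level of the keratins went from between 37000 and 86700 CPM in the untreated pools to 26300 to 35900 CPM with BIO. The treated pools all lay below the untreated ones, and their share of all counts was 2.63% to 3.58%.

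*krt4* was 11450, 12860, 12910 and 16170 CPM in wild type with BIO, just below the lowest untreated pool of 16630 CPM. It fell 1.94-fold (log2 fold change −0.95, standard error 0.16, adjusted p = 1.3e-04). *krt5* was 3259, 4194, 4322 and 5242 CPM (−1.04, standard error 0.21, adjusted p = 8e-04) and *krt8* was 2666, 2803, 2514 and 3176 CPM (−0.91, standard error 0.15, adjusted p = 1.1e-04). For both, every treated pool was below every untreated one. The other abundant genes fell, with log2 fold changes of −1.08 for *cyt1*, −1.03 for *krt92*, −1.02 for *krt17* and −1.0 for *cyt1l* and *krt18a.1*. *krt99* fell less, at −0.54. Treated and untreated pools overlapped for *cyt1*, *krt92*, *krt17*, *cyt1l* and *krt99*, and did not for *krt18a.1*.

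*krt94* fell more. It was 0.779, 0.633, 0.875 and 1.34 CPM in wild type with BIO, against 4.43 CPM in the lowest untreated pool. The decrease was 14.9-fold (log2 fold change −3.89, standard error 0.47, adjusted p = 3e-06), and it ran from −4.19 to −3.19 over 13 alternatives. *krt1-19e* was 0.600, 0.369, 0.754 and 0.897 CPM (−2.67, standard error 0.53, adjusted p = 7.5e-04), again below all untreated pools.

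Among the low genes, lower values with overlapping pools were found for *krt93*, *krt1-19d* and *krt1-c5*. The pools of *krt97* and *krt222* also overlapped, at log2 fold changes of −0.78 and −0.66 (adjusted p = 0.013 and 0.001). *krt93* was 0.0974, 0.123, 0.0905 and 0.406 CPM with BIO, and its highest pool reached the untreated range (−2.06, standard error 0.57, adjusted p = 0.011). It reached 0.191 CPM in 4 untreated and 1 treated wild-type pool, so of these groups the untreated one, where it is higher, met the filter. *krt1-19d* was 6.83, 4.36, 6.19 and 9.12 CPM (−1.80, standard error 0.54, adjusted p = 0.021) and *krt1-c5* was 6.08, 5.28, 5.46 and 6.62 CPM (−0.73, standard error 0.25, adjusted p = 0.041). Untreated replicate 3 lay among the treated pools for *krt1-19d* (6.04 CPM) and below all of them for *krt1-c5* (4.77 CPM), while the other untreated pools were above every treated one. The *krt1-19d* call was lost without untreated replicate 1 or 2 or BIO replicate 2 or 3 (adjusted p up to 0.099), and the *krt1-c5* call without any single pool other than untreated replicate 3 (adjusted p up to 0.15). Both were lost with only the libraries compared in the fit (0.11 and 0.097).

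*krt98* was the keratin that rose in wild type. It went to 0.568, 0.826, 0.664 and 0.576 CPM, all above the untreated maximum of 0.174 CPM (138 against 33 counts, log2 fold change 2.35, standard error 0.51, adjusted p = 0.0016). *krt18b*, at 2.85, 2.25, 4.07 and 4.57 CPM, overlapped its untreated range (0.08, adjusted p = 0.88), and *krt15* was not called (0.88, adjusted p = 0.42). In the fit to all libraries, *krt98* again passed the filter through groups other than untreated wild type.

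**Figure D3:**
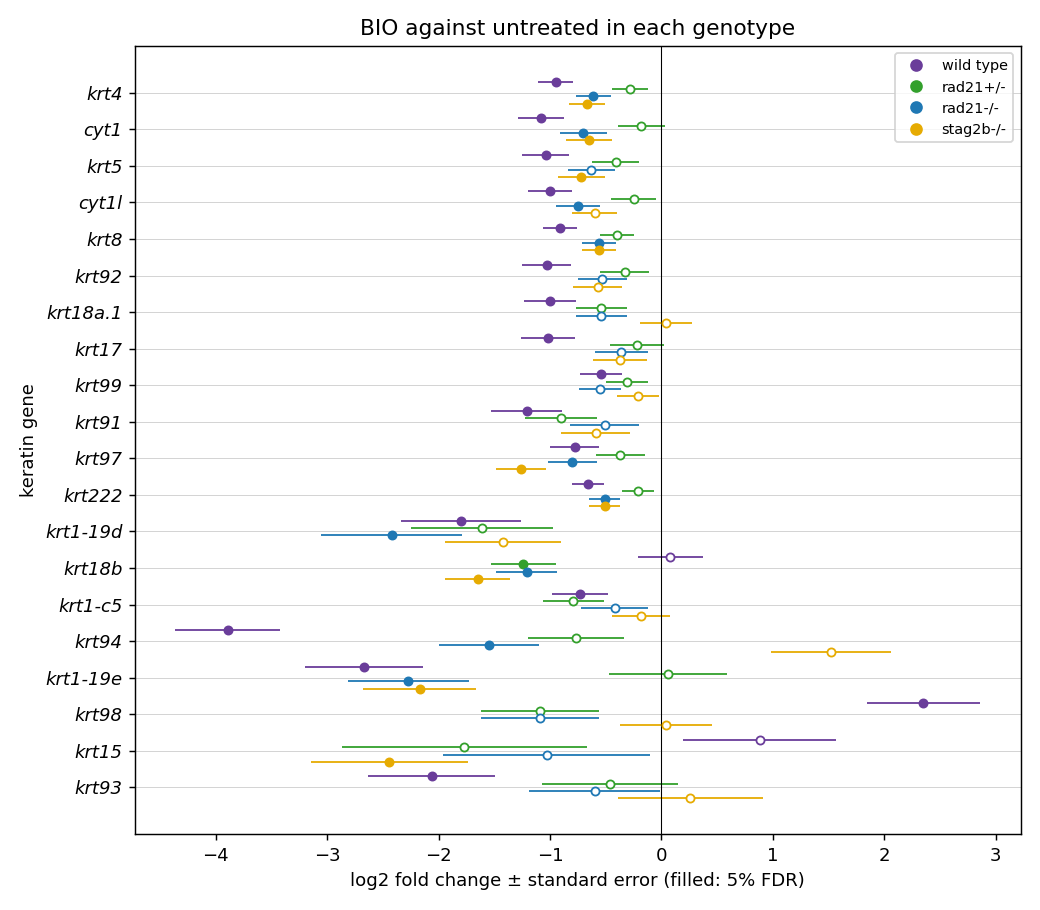
Log2 fold change ± standard error of the 20 tested keratins with BIO against untreated in each genotype (4 pools each; filled points, called at 5% FDR), ordered by level per kilobase from the top. Most wild-type points lie near −1, *krt94* in wild type lies at −3.89, and *krt98* in wild type lies at 2.35.

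The epidermal lists moved with the keratins in treated wild type. Of 18 periderm and enveloping layer genes 13 were lower and 0 higher, beside 9.76% and 7.58% of all genes tested. All 18 had a log2 fold change below 0, with a median of −0.70. *anxa1c* (annexin; −1.06, adjusted p = 6.4e-05), *icn2* (ictacalcin; −1.38, adjusted p = 1.5e-04), *spint1a* (a protease inhibitor; −0.66, adjusted p = 1.7e-04) and *grhl1* (a Grainyhead-like transcription factor; −0.79, adjusted p = 3e-04) had the lowest adjusted p. The summed level of this list was 4020 to 8800 CPM without and 3070 to 3680 CPM with BIO, with no overlap.

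Of 15 basal epidermis genes 10 were lower (median −0.61), led by *epcam*, an epithelial adhesion gene (−0.82, adjusted p = 2e-04), and *cdh1*, which encodes E-cadherin (−0.63, adjusted p = 2.3e-04). Of 13 desmosome genes 9 were lower (median −0.66), with both desmoplakin genes *dspa* and *dspb* at −0.96 (adjusted p = 3.1e-04 and 1.1e-04). Of 6 ionocyte genes 4 were lower (median −1.51). Other intermediate filament genes did not follow, with 1 of 16 lower and a median of −0.04, and of 10 notochord genes 1 was higher and 0 were lower. Of 5 tailbud progenitor genes 2 were higher, of 4 neural genes 1 was higher, and of 4 muscle genes none was called. Over all genes tested, 9.76% were called lower and 7.58% higher. No test set the counts of these short lists against those shares. The part of a smaller share of skin in the lower keratin values was not tested. The median keratin change of −1.0 was beyond the medians of the periderm, basal epidermis and desmosome lists. It was short of the ionocyte median of −1.51, and none of these differences was tested.

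**Figure D4:**
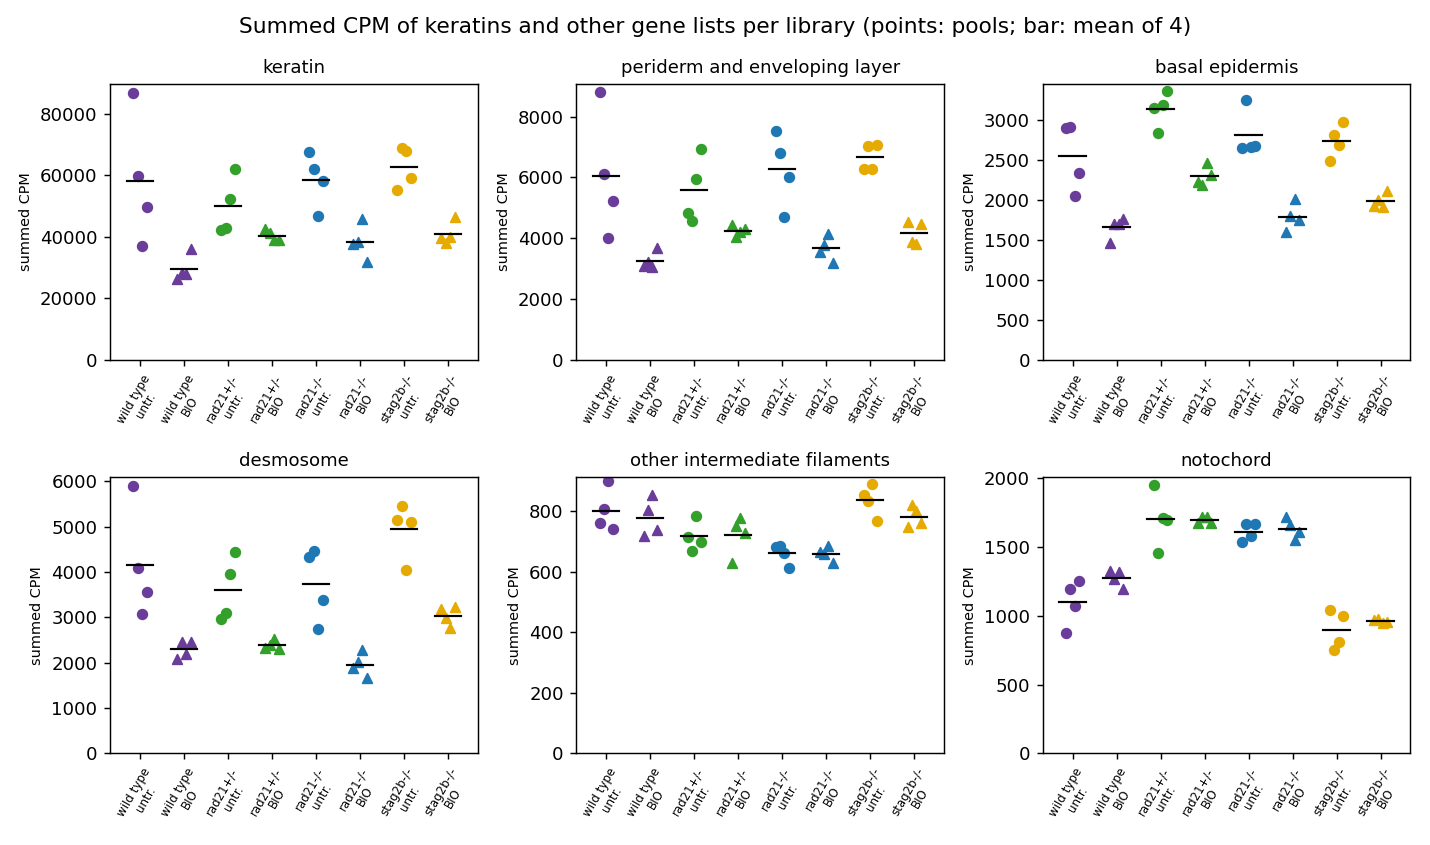
Summed CPM per library of the keratins and of 5 other gene lists in the 8 groups (linear axes from 0; circles, untreated; triangles, BIO; bars, mean of 4 pools). Periderm, basal epidermis and desmosome genes are lower in the treated than in the untreated pools of every genotype. Keratins are lower in all but *rad21+/-*, where the pools overlap. The other intermediate filament genes overlap in every genotype.

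In the mutants fewer keratins passed the test with BIO. In *rad21-/-*, 10 of 20 were lower and 0 higher (beside 5.06% and 2.1% of all genes), with a median log2 fold change of −0.62. In *stag2b-/-*, 9 were lower and 0 higher (beside 4.72% and 3.26%), with a median of −0.58. In *rad21+/-*, 1 was lower and 0 higher (beside 2.31% and 1.31%), with a median of −0.41, and all but *krt1-19e* were below 0. With the replicate number as a block in the fit to all 32 libraries, 2 keratins were lower in *rad21+/-*. Each number then had an effect shared by all 8 groups, so this is no pairing of the *rad21+/-* pools alone. Medians over all genes were 0.01, −0.01 and −0.01.

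These counts rest on few pools. In *rad21-/-*, 2 keratins were called without BIO replicate 4 or untreated replicate 1, 3 without BIO replicate 1 or untreated replicate 2, and 6 without BIO replicate 2. In *stag2b-/-*, 4 were called without BIO replicate 3 or untreated replicate 2 and 5 without BIO replicate 2. In *rad21+/-*, none was called by edgeR without BIO replicate 1, 2 or 4 or untreated replicate 3 or 4.

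*krt4* was 18020, 19520, 22630 and 16130 CPM in *rad21-/-* with BIO (log2 fold change −0.61, standard error 0.16, adjusted p = 0.018) and 17910, 18130, 18970 and 21430 CPM in *stag2b-/-* with BIO (−0.67, standard error 0.16, adjusted p = 0.010). Neither group overlapped its untreated pools. In *rad21+/-* with BIO it was 20410, 20810, 19980 and 19900 CPM and overlapped them (−0.28, standard error 0.16, adjusted p = 0.35). The *rad21-/-* call was lost without untreated replicate 1 or 2 or BIO replicate 1 or 4 (adjusted p up to 0.082).

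*krt8* was 4048, 4038, 4869 and 3305 CPM in *rad21-/-* with BIO (−0.56, adjusted p = 0.019), 3771, 3745, 3596 and 4285 CPM in *stag2b-/-* with BIO (−0.56, adjusted p = 0.020) and 4273, 4029, 3783 and 3661 CPM in *rad21+/-* with BIO (−0.40, adjusted p = 0.13). *krt5* was 3642, 4008, 5282 and 2794 CPM in *rad21-/-* with BIO (−0.63, adjusted p = 0.062), 4911, 5193, 5693 and 6326 CPM in *stag2b-/-* with BIO (−0.72, adjusted p = 0.030) and 3959, 4669, 4251 and 3645 CPM in *rad21+/-* with BIO (−0.41, adjusted p = 0.27). For both genes the treated *stag2b-/-* pools were all below the untreated ones, and in the *rad21* genotypes they overlapped. The call of *krt8* was lost in *rad21-/-* without untreated replicate 1 or 2 or BIO replicate 1 or 4 and in *stag2b-/-* without untreated replicate 2 or BIO replicate 3 (adjusted p up to 0.092 and 0.065), and that of *krt5* in *stag2b-/-* without untreated replicate 2 or 3 or BIO replicate 1, 2 or 3 (adjusted p up to 0.11).

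*krt18b* fell in all 3 mutants. It was 14.5, 15.9, 15.3 and 20.9 CPM in *rad21-/-* with BIO (−1.21, standard error 0.27, adjusted p = 0.0060), 3.30, 2.59, 2.91 and 3.71 CPM in *stag2b-/-* with BIO (−1.65, standard error 0.29, adjusted p = 9.8e-04) and 3.90, 3.17, 3.27 and 3.64 CPM in *rad21+/-* with BIO (−1.24, standard error 0.29, adjusted p = 0.018). Treated *stag2b-/-* and *rad21+/-* pools thus lay within the treated wild-type range of 2.25 to 4.57 CPM, and treated *rad21-/-* pools stayed above it. The *rad21+/-* call was lost without untreated replicate 3 or 4 or BIO replicate 1, 2 or 4 (adjusted p up to 0.075).

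*krt1-19e* was 0.316, 0.244, 0.844 and 0.184 CPM in *rad21-/-* with BIO (−2.27, standard error 0.54, adjusted p = 0.0095) and 1.12, 0.897, 1.11 and 1.28 CPM in *stag2b-/-* with BIO (−2.17, standard error 0.51, adjusted p = 0.0093), in each case below all untreated pools. In *rad21+/-* with BIO it was 1.89, 0.545, 0.687 and 0.881 CPM, as before treatment (0.06, standard error 0.53, adjusted p = 0.97). *krt1-19d* was 0.316, 0.464, 1.38 and 0.392 CPM in *rad21-/-* with BIO (−2.42, adjusted p = 0.019), 14.9, 16.2, 14.8 and 19.7 CPM in *stag2b-/-* with BIO (−1.42, adjusted p = 0.096) and 1.41, 0.831, 0.710 and 0.426 CPM in *rad21+/-* with BIO (−1.61, adjusted p = 0.15). The *krt1-19d* call in *rad21-/-* was lost without untreated replicate 1 or BIO replicate 1, 2 or 4 (adjusted p up to 0.092).

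*krt1-c5* was 0.856, 0.611, 0.578 and 0.438 CPM in *rad21-/-* with BIO, 1.59, 1.13, 1.76 and 1.82 CPM in *rad21+/-* with BIO and 4.52, 3.67, 2.98 and 4.26 CPM in *stag2b-/-* with BIO. None of these responses was called (−0.42, −0.79 and −0.18, adjusted p = 0.44, 0.086 and 0.74). *krt93* was 0.223, 0.147, 0.250 and 0.115 CPM in *rad21-/-* with BIO, 0.240, 0.0952, 0.137 and 0.341 CPM in *rad21+/-* with BIO and 0.160, 0.179, 0.111 and 0.265 CPM in *stag2b-/-* with BIO, also without a call (adjusted p = 0.60, 0.73 and 0.87).

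The periderm and desmosome lists fell along with the keratins here too. Of 18 periderm genes 12 were lower in *rad21-/-*, 10 in *stag2b-/-* and 2 in *rad21+/-* (medians −0.61, −0.55 and −0.32). Of 15 basal epidermis genes 10, 4 and 6 were lower, and of 13 desmosome genes 8, 8 and 4. Over all genes tested, 5.06%, 4.72% and 2.31% were called lower in these genotypes. In *rad21+/-* the keratins summed to 42300 to 62100 CPM without and 38900 to 42500 CPM with BIO, so the pools overlapped, while in *stag2b-/-* they summed to 55300 to 68800 CPM without and 37900 to 46600 CPM with BIO, with no overlap.

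Whether a keratin responded differently in a mutant than in wild type was tested as the interaction of genotype with BIO, the log2 ratio of the mutant response to the wild-type response. In *rad21-/-*, 0 of 20 were called above 0 and 1 below, beside 0.393% and 0.482% of all genes. In *rad21+/-*, 1 was above and 1 below, beside 0.426% and 0.486%. In *stag2b-/-*, 1 was above and 1 below, beside 0.711% and 0.631%. The medians over the keratins were 0.34, 0.48 and 0.38, with 14, 16 and 16 of 20 above 0, and all 3 comparisons share the response of wild type. The abundant keratins were among those with no call. For *krt4* the interactions were 0.34 (standard error 0.23, adjusted p = 0.60) in *rad21-/-*, 0.68 (0.23, 0.17) in *rad21+/-* and 0.28 (0.23, 0.65) in *stag2b-/-*, and differences of about the size of these standard errors could not be resolved.

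*krt94* had the largest interaction, in *stag2b-/-*. Its pools were 0.312, 0.206, 0.447 and 0.222 CPM without and 0.609, 0.949, 0.930 and 0.963 CPM with BIO. Every treated pool was above every untreated one, opposite to the 14.9-fold decrease in wild type, although the rise by itself was not called (log2 fold change 1.52, standard error 0.54, adjusted p = 0.079). The interaction was 5.41 (standard error 0.70, adjusted p = 1.5e-04), and it was called in each of 21 alternatives (4.70 to 5.70). With BIO the level in *stag2b-/-* differed little from that in wild type (−0.06, standard error 0.48, adjusted p = 0.96). The interaction draws on the same untreated pools as the untreated difference of −5.48 and is not separate from it. The untreated *stag2b-/-* level rests on 62 counts over the 4 pools.

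In *rad21+/-*, *krt94* was 2.85, 2.87, 4.19 and 7.25 CPM without and 2.28, 1.62, 2.52 and 3.69 CPM with BIO (−0.77, adjusted p = 0.32). The pools overlapped, and the interaction was 3.12 (standard error 0.62, adjusted p = 0.013). It was not called when only the libraries of these 4 groups were fitted (adjusted p = 0.075). In *rad21-/-* the treated pools were at 0.539, 0.831, 1.31 and 0.783 CPM, below the untreated ones (−1.55, standard error 0.45, adjusted p = 0.033), and the interaction was not called (2.34, standard error 0.63, adjusted p = 0.077). The *rad21-/-* response to BIO was not called without untreated replicate 1 or 2 or BIO replicate 1, 2 or 4 (adjusted p up to 0.14), nor with no filter on low counts (0.052).

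*krt98* differed in the other direction. It rose in wild type with BIO, whereas in *rad21-/-* the treated pools were 0.0744, 0.159, 0.281 and 0.0691 CPM and in *rad21+/-* 0.210, 0.104, 0.206 and 0.199 CPM. Both lay within or below the spread of their untreated pools (each −1.09, adjusted p = 0.22 and 0.25). The interactions were −3.44 in *rad21-/-* (standard error 0.74, adjusted p = 0.014) and −3.45 in *rad21+/-* (standard error 0.74, adjusted p = 0.018). In *stag2b-/-*, where *krt98* was high already, it was 2.44, 2.28, 2.71 and 2.12 CPM with BIO, inside its untreated range (0.04, adjusted p = 0.97), and the interaction was −2.31 (adjusted p = 0.071). These values rest on 33 to 77 counts per untreated group of 4 pools outside *stag2b-/-*. *krt98* reached 0.191 CPM in 0 untreated and 4 treated wild-type pools. It thus passed the filter through groups where it is higher, and these p-values are no separate support for a different response.

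For *krt18b* the interaction was called in *stag2b-/-* (−1.73, standard error 0.41, adjusted p = 0.028), since the level fell there and not in wild type. The values in *rad21-/-* (−1.30) and *rad21+/-* (−1.32) were near it but were not called (adjusted p = 0.13 for each). The *stag2b-/-* call was lost when BIO replicate 2 or 3 or untreated replicate 3 or 4 of *stag2b-/-*, or BIO replicate 3 or 4 or untreated replicate 4 of wild type, was left out (adjusted p up to 0.064), and when only the libraries compared were fitted (0.083). Counts changed too. Without wild-type untreated replicate 3 the interaction was called for 7 keratins in *rad21+/-*, 2 in *rad21-/-* and 3 in *stag2b-/-*. It was called for 3 in *stag2b-/-* without its untreated replicate 1, and for 1 without any pool named here for *krt18b* other than *stag2b-/-* untreated replicate 4.

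**Figure D5:**
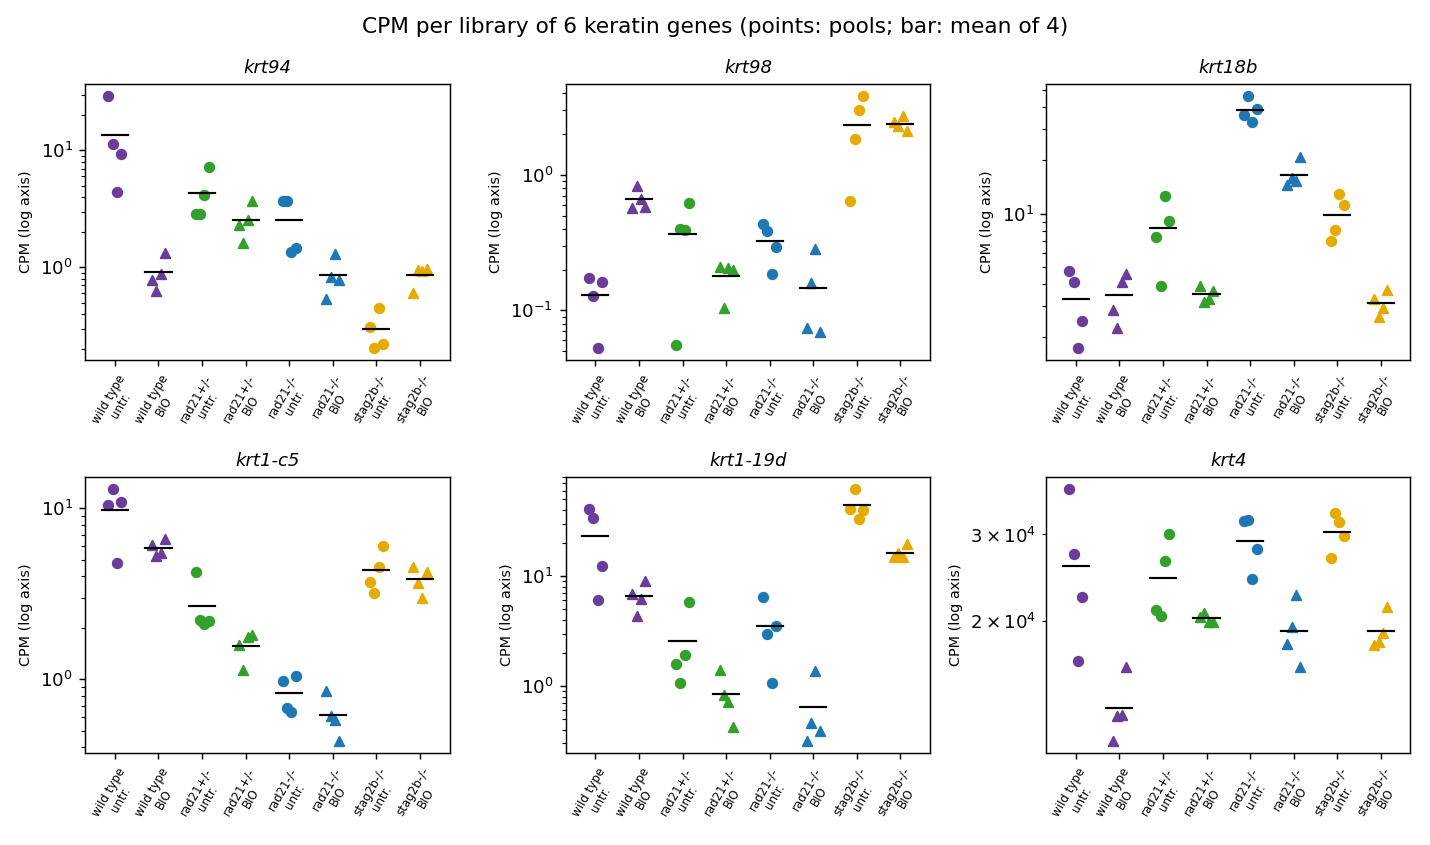
CPM per library (log axis) of *krt94*, *krt98*, *krt18b*, *krt1-c5*, *krt1-19d* and *krt4* in the 8 groups (circles, untreated; triangles, BIO; bars, mean of 4 pools). *krt94* is lowest in untreated *stag2b-/-*. With BIO its mean there (0.863 CPM) is near those of treated wild type (0.906 CPM) and treated *rad21-/-* (0.866 CPM). *krt98* is high in *stag2b-/-* in both states, and *krt18b* is highest in *rad21-/-*.

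Treated mutants were also set against treated wild type. In *rad21-/-*, 6 keratins were higher and 4 lower (beside 16.8% and 18.8% of all genes, median 0.03). In *rad21+/-*, 5 were higher and 4 lower (beside 11.7% and 11.2%, median 0.17). In *stag2b-/-*, 4 were higher and 1 lower (beside 6.56% and 7.04%, median 0.42). The epidermal lists follow in the same genotype order. Of 18 periderm genes 3, 4 and 7 were higher and 1, 0 and 2 lower (medians 0.20, 0.21 and 0.41). Of 15 basal epidermis genes 2, 5 and 5 were higher and 1, 1 and 0 lower (−0.09, 0.39 and 0.30). Of 13 desmosome genes 0, 2 and 3 were higher and 3, 1 and 0 lower (−0.25, −0.01 and 0.40). No test set the lists against the shares or the keratins. Of the 9 highest keratins per length, 4 were called higher in *rad21-/-*, 4 in *rad21+/-* and 2 in *stag2b-/-*, and 0 were called lower. *krt5* was not called (−0.11, −0.04 and 0.38), and *krt99* in *rad21+/-* was at −0.25. The genes higher in all 3 were *krt4* at 0.51, 0.60 and 0.52 (adjusted p = 0.013, 0.0065 and 0.030) and *krt8* at 0.54, 0.50 and 0.46 (adjusted p = 0.0053, 0.016 and 0.037). These 3 comparisons share the 4 treated wild-type pools and are not separate from each other. *cyt1l* was higher in both *rad21* genotypes (0.68 and 0.84, adjusted p = 0.0076 and 0.0024), as was *krt17* (1.02 and 0.80, adjusted p = 0.0013 and 0.015). Their chromosome 19 neighbours *cyt1* (0.09 and 0.33, adjusted p = 0.78 and 0.29) and *krt92* (0.27 and 0.30, adjusted p = 0.37 and 0.36) were not called. The *cyt1l* and *krt17* calls were not followed gene by gene when pools were left out. The *krt4* calls were lost in *rad21-/-* without *rad21-/-* replicate 3 (adjusted p = 0.060) and in *stag2b-/-* without wild-type replicate 1, 2 or 3 or *stag2b-/-* replicate 3 or 4 (up to 0.11). The *krt8* calls were lost in *rad21+/-* without wild-type replicate 3 (0.054) and in *stag2b-/-* without any single pool other than wild-type replicate 4 (up to 0.13).

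Among low genes, the genotype differences of the untreated pools were seen again with BIO for *krt1-c5* (−3.23 in *rad21-/-* and −1.91 in *rad21+/-*, adjusted p = 2e-10 and 2.3e-06) and *krt1-19d* (−3.35 and −2.99, adjusted p = 1.7e-04 and 9.2e-04), in each case without overlap of pools. *krt18b* was higher in treated *rad21-/-* (2.28, standard error 0.29, adjusted p = 4.1e-07), while in treated *rad21+/-* and *stag2b-/-* it was not called (0.02 and −0.13, adjusted p = 0.97 and 0.83). *krt98* was lower than in treated wild type in *rad21-/-* and *rad21+/-* (−2.1 and −1.95, adjusted p = 0.0014 and 0.0055) and higher in *stag2b-/-* (1.86, standard error 0.44, adjusted p = 0.0038), with no overlap. It reached 0.191 CPM in 4 treated wild-type pools, 1 treated *rad21-/-* pool and 2 treated *rad21+/-* pools. In the *rad21* comparisons wild type, where it is higher, thus met the filter, and these p-values are no separate support for a difference. *krt15*, a neighbour of *krt98*, was 0.422 to 0.711 CPM in treated wild type and at most 0.0938 CPM in treated *rad21-/-* and 0.0852 CPM in treated *rad21+/-*. It was counted among the lower keratins of both, but it reached 0.191 CPM in 0 of these 8 *rad21* pools and passed the filter through wild type and *stag2b-/-*, where it is higher, so its values are given without a test. *krt94* was higher in treated *rad21+/-* (1.46, adjusted p = 0.020), a call lost without wild-type replicate 1 or 2 or *rad21+/-* replicate 4 (adjusted p up to 0.074). In *stag2b-/-*, 2 keratins were called without *stag2b-/-* replicate 3 or 4 or wild-type replicate 1 or 2, and 3 without *stag2b-/-* replicate 2 or wild-type replicate 3. When only the libraries of these 2 groups were fitted, 13 were called.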

How the data were processed

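RNA-seq was done on 32 pools of zebrafish tailbuds. The authors used Cutadapt for trimming and HISAT2 and SAMtools for alignment (genome GRCz11), and deposited raw fragment counts per gene from featureCounts 1.5.3 with Ensembl 98. Counting was by strand and took no fragment with several alignments or several genes. The file pairs no symbols with its gene IDs, and 28988 of 32057 were named from a gene name table. The test was that of edgeR 4.0.16 (R 4.3.3), with normalization by the trimmed mean of M values, low counts removed by filterByExpr, and a robust quasi-likelihood fit of 1 mean per group. Benjamini-Hochberg adjusted p-values were called at 5% FDR. Untreated groups were fitted together (16 libraries, 20677 genes), and all contrasts with BIO were fitted to all 32 libraries (21385 genes). The scripts were tested on simulated data. Figures were drawn with matplotlib 3.10.9.

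The keratins and lists were chosen with earlier results of these data known. By rule, values in every library were given for the 3 keratins of highest mean CPM, *krt94*, those called in an interaction, and the called keratins of largest change between untreated genotypes, and for each list at most 4 genes of lowest adjusted p. Of 95 list genes, 90 were matched. The list genes *pkp3a*, *ppl*, *evpla* and *tbxta* each stand in 2 lists. The genes *krt15*, *cyt1l* and *krt17* were added for treated mutants after their values were seen. In this file, *krt96* has another name and falls outside the rule on symbols.

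Nothing says whether same-numbered pools share a clutch. Deviations of same-numbered pools from their group means correlated above 0.1 in all 4 pairs for BIO in *rad21+/-* (0.14 to 0.33), treated *rad21-/-* against treated wild type (0.15 to 0.32) and treated *stag2b-/-* against treated wild type (0.20 to 0.40). Alternatives were DESeq2 1.42.0, its size factors in edgeR, no filter on low counts, other sets of libraries in the fit, a block for the replicate number, and each library left out in turn. Pools are taken as separate samples.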

Additional observations from a re-analysis of the deposited data

Results flagged for a closer look

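Within groups of 4 pools, 1 pool stood apart by Dixon's criterion in 5 of the 80 sets examined (10 keratins in 8 groups), and chance flags about 1 in 20 groups. These were *krt94* in *stag2b-/-* with BIO, replicate 1 (0.609 CPM, the others 0.930 to 0.963 CPM), *krt98* in *rad21+/-* with BIO, replicate 2 (0.104 CPM, the others 0.199 to 0.210 CPM), *krt1-c5* in untreated *rad21+/-*, replicate 1 (4.25 CPM, the others 2.1 to 2.21 CPM), *krt1-19d* in *rad21-/-* with BIO, replicate 3 (1.38 CPM, the others 0.316 to 0.464 CPM), and *krt93* in wild type with BIO, replicate 4 (0.406 CPM, the others 0.0905 to 0.123 CPM).

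Responses to BIO that differed from the wild-type response by a test of the interaction (edgeR, adjusted over all genes) were those of *krt98* in *rad21-/-* (−3.44, adjusted p = 0.014) and *rad21+/-* (−3.45, adjusted p = 0.018), *krt94* in *rad21+/-* (3.12, adjusted p = 0.013) and *stag2b-/-* (5.41, adjusted p = 1.5e-04), and *krt18b* in *stag2b-/-* (−1.73, adjusted p = 0.028). Of these genes, *krt98* passed the filter through groups where it is higher, so its p-values are no separate support.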

How the results depend on the processing

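The 58 calls of named keratins were recomputed under 811 alternative values. Of these, 716 kept the direction and the call, 95 lost the call and 0 changed direction. The 58 were chosen because the main fit called them, and the alternatives reuse the same pools. This tally, which includes calls of *krt98*, is thus no separate support for them. The number of called keratins moved by more than 1.5 times in these cases, and the cause was not tested. DESeq2 called 2 for BIO in *rad21+/-* (1 by edgeR), 2 for the interaction in *rad21-/-* (1 by edgeR) and 4 for the interaction in *rad21+/-* (2 by edgeR). Fitting only the libraries compared gave 13 for treated *stag2b-/-* against treated wild type (5 with all), 2 for BIO in *rad21+/-* (1 with all), and 1 for each of the interactions in *rad21+/-* and *stag2b-/-* (2 with all). Fitting all 32 libraries gave 8 for untreated *rad21-/-* (4 with the 16 untreated). With a replicate block, 2 keratins were called for BIO in *rad21+/-* (1 without). The block also gave 4 in untreated *rad21+/-* (6 without), a change of no more than 1.5 times. There *krt5* and *krt94* lost their calls, and the block changed no other call of a named keratin. The block gave each number an effect shared by all groups of the fit, so it is no pairing of the groups compared. Outside the comparisons named above with all 4 correlations over 0.1, the numbers were not taken to pair groups. There, 0 to 3 of 4 correlations exceeded 0.1. Among these, in none but BIO in *stag2b-/-* did all 4 pools correlate best with their own number. Untreated *rad21-/-* against wild type had 3 of 4 above 0.1 (0.02 to 0.33), so whether these pools share a clutch is not known.

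Leaving out each library in turn gave 4 to 8 called keratins for untreated *rad21-/-*, 4 to 8 for *rad21+/-*, 3 to 5 for *stag2b-/-* and 2 to 2 for *rad21-/-* against *rad21+/-*. For the response to BIO, 13 to 18 were called in wild type, 2 to 12 in *rad21-/-*, 0 to 1 for *rad21+/-* and 4 to 8 for *stag2b-/-*. Treated *rad21-/-* had 8 to 11 against treated wild type, treated *rad21+/-* 7 to 9 and treated *stag2b-/-* 2 to 4, and for the interactions 1 to 2, 2 to 7 and 1 to 3. Depth limits *krt98*, *krt93* and *krt15*, which had few counts in many groups, and *krt95* and *krt18a.2*, which could not be tested.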
